A study of Mus musculus with 40 samples.

Results

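The early response to inhaled allergen was followed in whole lung of C3H mice, 6 h after aspiration. The comparison took the arrays whose titles name the C3H strain and the 6 h time: 5 arrays of lungs that had received allergen in phosphate-buffered saline, and 5 of lungs that had received the saline alone (PBS). These 10 arrays belong to a series of 40 one-colour Affymetrix arrays, in 8 groups of 5 that cross 2 strains (C3H and AJ), 2 treatments and 2 times (6 h and 24 h). Titles abbreviate the allergen as OVA and descriptions as HDM, so it is called allergen here. Every description names the AJ strain, so the titles alone give the strain. The substrain, age and sex of the mice, and whether they had been sensitised before the aspiration, are not given in the sources used here. The labels number the arrays of a group without stating that separate mice were used. The p-values therefore reflect only how far arrays spread within the 8 groups of the whole series, which may be partly technical.

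In allergic airway inflammation, injured epithelium releases alarmins such as IL-33, which act on innate lymphoid cells, mast cells and T helper 2 cells. Those cells make the type 2 cytokines IL-4, IL-5 and IL-13, which drive mucus production, alternative activation of macrophages and the eotaxin chemokines that draw eosinophils into the lung. Inhaled allergen can also set off a fast innate response, in which NF-kB induces cytokines, neutrophil-attracting chemokines and endothelial adhesion molecules, and interferon gamma induces its own set of chemokines and GTPases.

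After 6 h, C3H lungs given allergen had more transcript of mucus and goblet cell genes, of neutrophil, monocyte, eosinophil and T cell chemokines, of IL-1 and TNF family cytokines with their feedback inhibitors, and of interferon gamma-induced GTPases. Fewer genes moved as far in the other direction. The largest falls were of mixed function and included the clock genes Per1 and Dbp and the FGF-responsive Etv5. Smaller falls were counted in the FGF, EGF and ERK feedback list and the Notch, BMP, TGF-beta and Wnt list. Several of these smaller falls lost the call when a single array was left out. Of 12393 genes tested, 487 were higher with allergen and 457 lower (limma, adjusted p below 0.05), which is 3.93% and 3.69% of all genes. Without allergen array 1 the lower genes were 295. With the spread estimated from only the 10 arrays compared, instead of all 40, 252 genes were higher and 118 lower. Adding the replicate number as a block to that fit left 118 higher and 17 lower. Of 206 genes named below that passed, 48 did not pass when some single array was left out. Another probe set existed for 67 of them and passed in the same direction for 41. At least a 2-fold change was reached by 135 of the higher and 18 of the lower genes. The median log2 fold change was 0.73 among the higher genes, -0.55 among the lower ones and 0 over all genes. The 5 allergen arrays lay wholly above the 5 PBS arrays for 384 genes (3.10%) and wholly below for 322 (2.60%), and 306 and 234 of these also passed the test. Intensities are given below as deposited, and levels and fold changes are log2(intensity + 16), a scale that understates changes of dim genes. Each fold change carries the standard error (SE) from limma. In whole lung, fewer cells of a type and less RNA per cell cannot be told apart.

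The deposited values had been scaled to a common trimmed mean, so similar medians say little about array quality. The 10 arrays had medians between 67 and 81.3 and pairwise correlations between 0.908 and 0.977. Lung markers were bright on all of them: the surfactant gene Sftpc had intensities of 4222 to 6478 on allergen and 5170 to 6539 on PBS arrays, and the club cell gene Scgb1a1 4132 to 6126 and 4534 to 6869. The amount of other tissue differed, however. Krt4, a keratin of stratified epithelium such as that of the upper airway and oesophagus, had intensities of 2517, 939, 2162, 1219 and 2897 on allergen arrays 1 to 5, against 3601, 7.51, 2553, 13.9 and 8.3 on PBS arrays 1 to 5. Tnnc2, the troponin C of fast skeletal muscle, had 529, 445, 1233, 1009 and 993 on allergen arrays, against 660, 2.16, 635, 3.66 and 617 on PBS arrays. Krt4 was thus below 16 on PBS arrays 2, 4 and 5 and Tnnc2 on PBS arrays 2 and 4, while every allergen array was bright in both. Myh6, a cardiac myosin, had 134 to 519 on allergen arrays and 377 to 813 on PBS arrays, with PBS array 2 the highest. Krt4, Tnnc2, Krt13, Krt5, Myh1, Acta1 and Myh6 were chosen for this description after their values were seen. None of these genes passed the test (Krt4 adjusted p = 0.222, Tnnc2 0.282), nor did any of 26 cardiac and skeletal muscle, 12 adipose or 6 erythroid markers (limma, 8, 0 and 1 at an unadjusted p below 0.05). Over all 12393 genes, 2430 had an unadjusted p below 0.05. Without PBS arrays 2 and 4, 326 genes were higher and 228 lower, of which 294 and 185 were among those called with all arrays. Without PBS arrays 2, 4 and 5 the counts were 281 and 172, with 232 and 137 shared. Of the 24 rises and 16 falls that head the ranking below, 24 rises and 14 falls passed without arrays 2 and 4, and the same numbers without arrays 2, 4 and 5. Atp6v1c2 and Smpd2 were the falls lost in each case. Over all 206 named genes that passed, 49 lost the call without arrays 2 and 4 and 68 without arrays 2, 4 and 5. The part of these tissues in the other results was not tested.

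**Figure D1:**
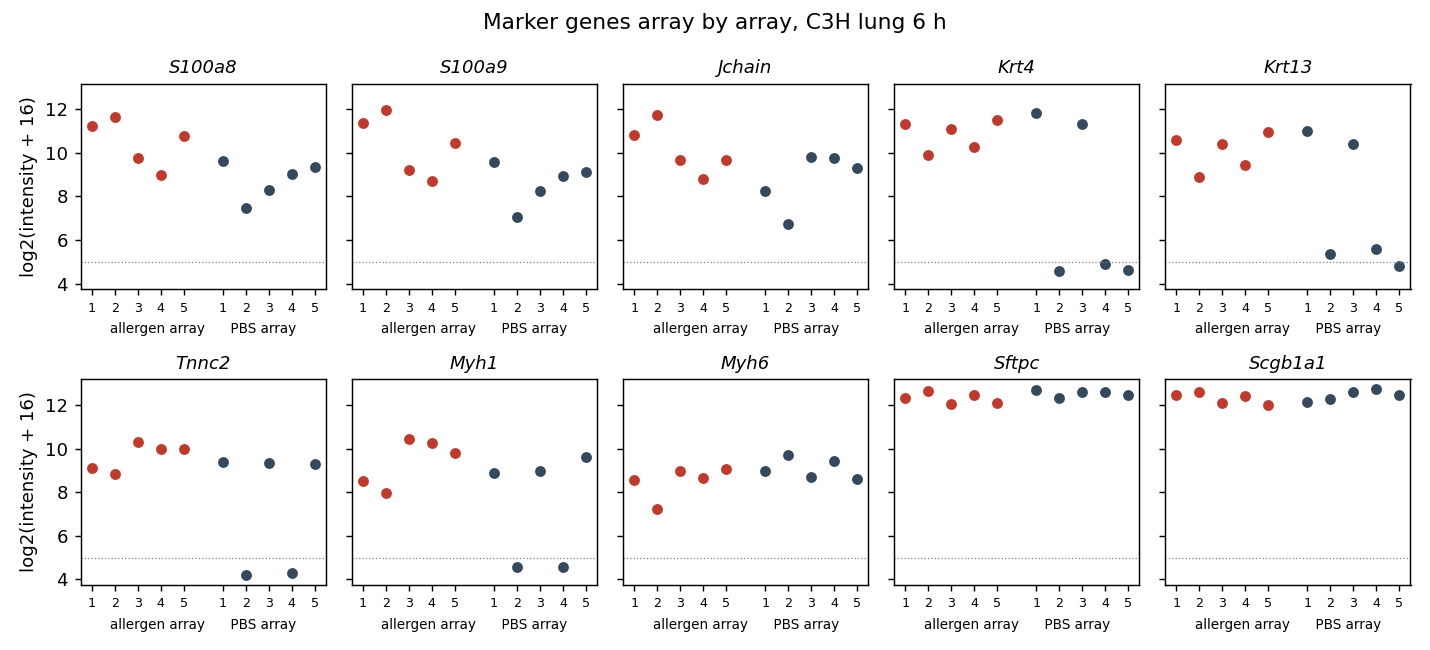
Levels, log2(intensity + 16), of marker genes on each of the 5 allergen arrays (red, left) and 5 PBS arrays (blue, right) of C3H lung at 6 h, 1 point per array, with the dotted line at an intensity of 16. Krt4 and Krt13 fall below or near the line on PBS arrays 2, 4 and 5 and the muscle genes Tnnc2 and Myh1 on PBS arrays 2 and 4, the neutrophil genes S100a8 and S100a9 are highest on allergen arrays 1 and 2, and the lung genes Sftpc and Scgb1a1 are bright throughout.

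The chemokines that attract neutrophils through the receptor CXCR2 were among the strongest responses. Cxcl5, made mainly by epithelium, had intensities of 642, 242, 343, 256 and 195 with allergen, against 9.18, 16.9, 19.1, 20.3 and 24.6 with PBS, a log2 fold change of 3.26 ± 0.32 (adjusted p = 3.93e-09). Cxcl1, the mouse KC chemokine, had 1180, 959, 915, 593 and 944 on allergen arrays, against 74.9, 69.5, 107, 90 and 129 on PBS arrays, and rose by 3.08 ± 0.33. For Cxcl2, the macrophage inflammatory protein MIP-2, the values were 421, 352, 325, 331 and 345 with allergen, against 43.7, 54.7, 61.1, 35.2 and 80.9 with PBS, a rise of 2.41 ± 0.25. None of the 3 genes overlapped between the groups, and allergen array 1 was the highest for each. In the list of ELR CXC chemokines and neutrophil growth factors, 5 of 13 measured genes were higher and 0 lower, with a median log2 fold change of 0.72. The other 2 were Csf3r, the receptor for the granulocyte growth factor G-CSF (0.84 ± 0.23), and the macrophage growth factor Csf1 (0.81 ± 0.14). Csf3, which encodes G-CSF itself, did not pass (0.30 ± 0.35, adjusted p = 0.727).

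Cxcl1 and Cxcl2 lie near each other on chromosome 5, and their promoters are shown because they share a match to the same NF-kB motif. The windows below hold the 120 bases before each RefSeq transcription start (GRCm38.p6, plus strand, chr5:90891125-90891244 for Cxcl1 and chr5:90903779-90903898 for Cxcl2), written 5′ to 3′ with matches to GGG, any 2 bases and TTTCC on either strand in capitals.
Cxcl1: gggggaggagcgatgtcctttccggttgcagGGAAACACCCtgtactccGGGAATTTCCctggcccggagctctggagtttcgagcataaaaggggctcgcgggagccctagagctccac
Cxcl2: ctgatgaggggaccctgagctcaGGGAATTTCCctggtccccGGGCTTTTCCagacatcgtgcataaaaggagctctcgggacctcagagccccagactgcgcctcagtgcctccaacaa
Each promoter held 2 matches, and the matches of Cxcl1 began 89 and 71 bases before the start, those of Cxcl2 97 and 78 bases before it. This motif occurred in 1.65% of the 9887 promoters of measured genes, and in 2 of the 14 promoters available among the 24 largest rises and 0 of 15 among the 16 largest falls. It was chosen after the looser form GGG, any 5 bases and CC had proved to occur in 64.1% of all promoters, in 8 of the 14 rises and in 13 of the 15 falls.

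The ligands of CXCR3, a receptor of activated T and NK cells, formed the next group of CXC chemokines. Cxcl10 had intensities of 312, 237, 259, 253 and 293 with allergen, against 16.8, 48.1, 25.3, 28.1 and 29.6 with PBS, and rose by 2.68 ± 0.22 (adjusted p = 5.46e-11). Cxcl9 reached 121 to 252 with allergen, against 5.01 to 36.7 with PBS (2.65 ± 0.26), and Cxcl11 rose by 1.66 ± 0.27. The groups did not overlap for Cxcl10 or Cxcl9, and the 5 allergen values of Cxcl10 lay within a narrow range. Of the 12 genes in this list, 5 were higher and 1 lower. Beyond the 3 ligands, the lymphocyte chemokine receptors Cxcr6 (0.72 ± 0.19) and Cxcr5 (0.66 ± 0.20) rose, and Cxcr4, the receptor of CXCL12, fell (-0.76 ± 0.16).

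The same 3 CXCR3 ligands are classical targets of interferon gamma, and the immunity-related GTPases and guanylate-binding proteins that this cytokine induces moved as well. Iigp1, a GTPase that attacks the vacuoles of intracellular pathogens, had 1170, 1628, 1211, 1224 and 1336 with allergen, against 317, 160, 325, 245 and 315 with PBS. Igtp, a regulatory member of that family, had 1149, 874, 827, 1148 and 1081 with allergen, against 272, 190, 213, 166 and 273 with PBS. In neither gene did the groups overlap, and the log2 fold changes were 2.24 ± 0.20 and 2.12 ± 0.22. In this list 14 of 19 genes were higher and 0 lower, with a median of 1.13, the highest share of any pathway list. It included Irgm2 (2.09 ± 0.26), Ifi47 (1.83 ± 0.19) and Irgm1 (1.07 ± 0.13) among the GTPases of that family and Gbp6 (1.65 ± 0.24), Gbp2 (1.57 ± 0.17) and Gbp3 (1.24 ± 0.23) among the guanylate-binding proteins. The transcription factor Irf1 rose by 0.99 ± 0.14 and the immune checkpoint ligand Cd274 by 1.13 ± 0.17, and Ifng itself, dim on these arrays, by 0.85 ± 0.17 (adjusted p = 0.000689). Antiviral genes that mark type I interferon moved less: 7 of 33 were higher, 0 lower, with a median of 0.23. They were Slfn2 (1.17 ± 0.23), Slfn4 (1.14 ± 0.31), Slfn1 (0.99 ± 0.27), the nucleic acid sensor Zbp1 (0.95 ± 0.18), Rtp4, Oas3 and Stat2. Mx2 and Rsad2, 2 genes strongly induced by type I interferon, stood at 0.07 ± 0.25 and 0.04 ± 0.21 (adjusted p = 0.934 and 0.959). Among class I antigen presentation genes 3 of 13 were higher, the peptide transporter Tap1 (0.92 ± 0.18) and the immunoproteasome subunits Psmb9 (0.49 ± 0.15) and Psmb8 (0.43 ± 0.13). The calls of Psmb9 and Psmb8 were lost without some 1 array.

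The promoters of Cxcl10, Igtp and Irgm2 are shown because each held the core of the interferon-stimulated response element, GAAA, any 2 bases and GAAA on either strand, which is in capitals. The windows (GRCm38.p6) are chr5:92349010-92349129 on the minus strand for Cxcl10, chr11:58199456-58199555 on the plus strand for Igtp and chr11:58214847-58214946 on the plus strand for Irgm2.
Cxcl10: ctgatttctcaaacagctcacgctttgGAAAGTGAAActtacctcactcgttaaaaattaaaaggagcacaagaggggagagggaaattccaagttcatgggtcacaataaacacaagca
Igtp: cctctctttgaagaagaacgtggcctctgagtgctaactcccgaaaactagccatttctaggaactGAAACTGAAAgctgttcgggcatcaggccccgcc
Irgm2: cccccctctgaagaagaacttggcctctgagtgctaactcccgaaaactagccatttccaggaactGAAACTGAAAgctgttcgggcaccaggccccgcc
The match began 213 bases before the start of Cxcl10, 34 bases before that of Igtp and 64 bases before that of Irgm2. Igtp and Irgm2 lie near each other on chromosome 11, and 29 bases around and including the match are identical between them, so these are related sequences. The core occurred in 5 of the 14 promoters available among the 24 largest rises (also in those of Saa3 and Slc26a4) and in 0 of 15 among the 16 largest falls, beside 3.17% of all 9887. The STAT6 motif, TTC, any 4 bases and GAA, occurred in 1 of the 14 (Cd209e) and 0 of the 15, beside 5.67% of all, and the STAT3 motif TTCNNNGAA, with 1 free base fewer, in 3 and 2, beside 7.04%.

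Among CC chemokines, the eotaxins led. Ccl24, or eotaxin-2, had 663, 594, 239, 335 and 673 with allergen, against 17.6, 11.1, 32.3, 10.4 and 44 with PBS, and rose by 3.70 ± 0.31 (adjusted p = 1.25e-10), the largest rise of any chemokine. Ccl11, or eotaxin-1, had 393, 521, 306, 402 and 491 with allergen, against 44, 26.3, 114, 61.8 and 69 with PBS, a rise of 2.55 ± 0.27. The lowest allergen array stood clear of the highest PBS array for each gene, though PBS array 3 of Ccl11 was raised above the other PBS arrays. Of 9 eosinophil and Th2 cell chemokine genes, 6 were higher and 0 lower: also Ccl17 (1.73 ± 0.22) and Ccl22 (0.93 ± 0.23), which draw Th2 cells through CCR4, Ccl8 (1.44 ± 0.20) and Ccl1 (0.86 ± 0.23), ligands of CCR8 in the mouse. Of 13 monocyte and macrophage chemokine genes, 9 were higher and 0 lower. Ccl3 reached 93.1 to 206 with allergen, against 2.47 to 30.2 with PBS (2.43 ± 0.28), Ccl7 96.2 to 217 against 3.12 to 36.7 (2.15 ± 0.25) and Ccl2 110 to 280 against 17 to 69.5 (1.92 ± 0.27). The chemokine receptor genes Ccr1 (1.64 ± 0.27) and Ccr2 (0.81 ± 0.20) rose too, as did Ackr1 (0.78 ± 0.16), a scavenging receptor of venular endothelium. In contrast, only 1 of 12 dendritic cell and lymphoid chemokine genes was higher, the CCR6 ligand Ccl20 (1.23 ± 0.24), beside 3.93% of all genes.

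**Figure D2:**
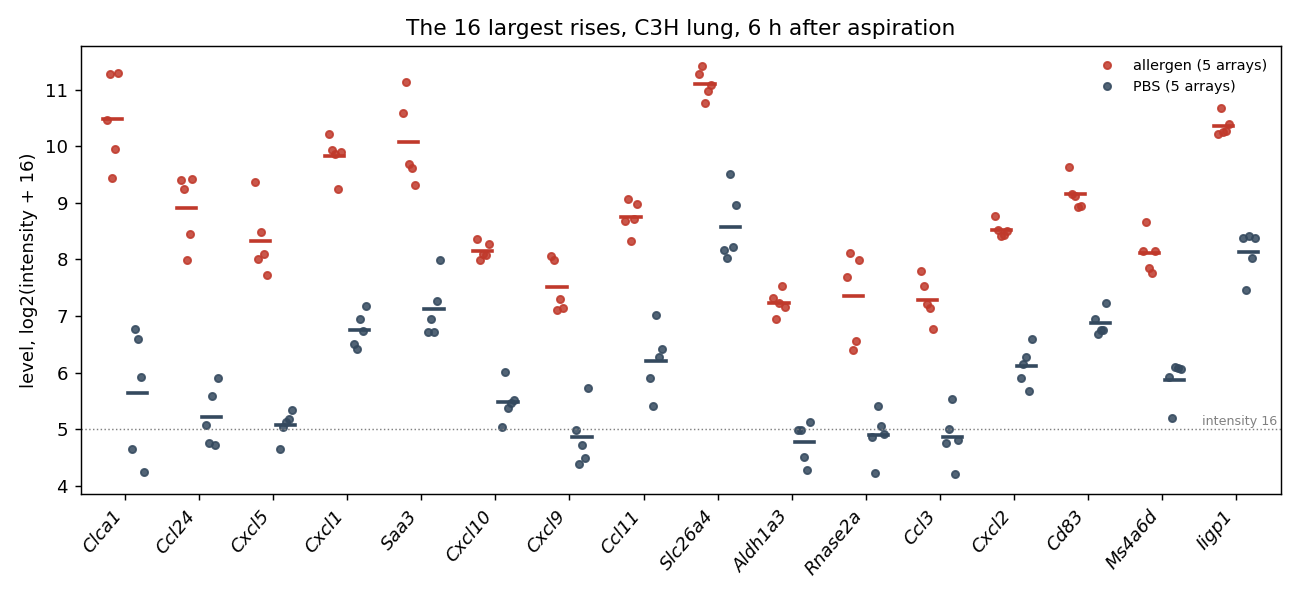
Levels, log2(intensity + 16), of the 16 genes with the largest rises whose groups did not overlap, on the 5 allergen arrays (red, left) and the 5 PBS arrays (blue, right) of C3H lung at 6 h. Points are arrays, bars are group means and the dotted line marks an intensity of 16. Clca1 varies most among PBS arrays, and for Ccl24, Cxcl5, Cxcl9, Aldh1a3, Rnase2a and Ccl3 the PBS arrays lie around the dotted line.

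Il33, the alarmin stored in nuclei of barrier cells, was bright and had intensities of 1347, 1384, 950, 1109 and 1431 with allergen, against 235, 213, 477, 480 and 495 with PBS. The groups were far apart, with PBS arrays 1 and 2 lowest, and the gene rose by 1.74 ± 0.19 (adjusted p = 3.62e-08). The type 2 cytokines themselves were dim. Il4 had 60.3, 63.7, 41.4, 69.4 and 59.8 on allergen arrays, against 28.3, 22.5, 22.2, 38 and 31.6 on PBS arrays, and rose by 0.75 ± 0.17 without overlap. Il13 had 8.9, 20.7, 27.3, 8.27 and 39.3 with allergen, against 4.58, 4.32, 5.09, 9.32 and 3.37 with PBS, and Il5 had 13.9, 27.1, 14.2, 25.9 and 35.9 with allergen, against 7.49, 9.49, 17.1, 7.88 and 3.25 with PBS. Il13 and Il5 passed (0.72 ± 0.21 and 0.64 ± 0.18, adjusted p = 0.0243 and 0.0248), but their groups overlapped and most values lay near the pseudocount of 16. Il13 no longer passed without allergen array 2, 3 or 5 or PBS array 1 or 2 (adjusted p up to 0.113), and Il5 without allergen array 2, 4 or 5 or PBS array 1 or 5 (up to 0.095) or with a pseudocount of 1 (0.106) or quantile normalization (0.0502). Without PBS arrays 2 and 4 both lost the call (0.0579 for Il13 and 0.0942 for Il5), as they did without PBS arrays 2, 4 and 5 (0.148 and 0.354). Of 21 type 2 cytokines, alarmins and receptors, 9 were higher and 0 lower. The receptor side included Il4ra, the shared receptor chain for IL-4 and IL-13 (1.33 ± 0.17), the decoy receptor Il13ra2 (0.66 ± 0.20), Il5ra (0.75 ± 0.21) and the paired beta chains Csf2rb (1.34 ± 0.20) and Csf2rb2 (1.12 ± 0.16) that carry the IL-3, IL-5 and GM-CSF signal. The calls of Il13ra2 and Il5ra were lost without some 1 array. The other, dimmer probe sets of Il4ra did not pass (limma, 1.11 ± 0.46 and 0.31 ± 0.20, adjusted p = 0.175 and 0.479). Csf2rb and Csf2rb2 are close copies, as are Chil3 and Chil4 below, and probes may not separate them. Il1rl1, the receptor of IL-33, had no probe set used here.

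Of 23 effector genes of the type 2 response and of alternatively activated macrophages, 16 were higher and 0 lower, with a median of 0.94. Rnase2a, an eosinophil-associated ribonuclease, had 190, 261, 68.7, 78.4 and 239 with allergen, against 13, 2.63, 26.5, 17.2 and 14.2 with PBS (2.46 ± 0.30). Allergen arrays 3 and 4 were lowest for this gene, yet above every PBS array. Chil4, a chitinase-like protein, had 101 to 272 with allergen, against 26.7 to 66 with PBS (1.40 ± 0.30). Arg1, the arginase of alternatively activated macrophages, had 69.4, 57.6, 29.5, 25.8 and 85.7 with allergen, against 27.2, 1.9, 17.9, 3.14 and 3.24 with PBS, and rose by 1.39 ± 0.34 with 1 overlap, since PBS array 1 exceeded the lowest allergen array. Without PBS arrays 2 and 4 Arg1 did not pass (adjusted p = 0.103), and without PBS arrays 2, 4 and 5 neither did Chil4 (0.0644). The resistin-like Retnla (1.59 ± 0.20), the acidic chitinase Chia1 (1.23 ± 0.20), the low-affinity IgE receptor Fcer2a (1.12 ± 0.24) and the PD-1 ligand Pdcd1lg2 (1.12 ± 0.16) rose as well. Of 7 eosinophil markers, Rnase2a and Il5ra passed, and the call of Il5ra was lost without some 1 array. The granule genes Epx and Prg2 stood at -0.01 ± 0.12 and 0.40 ± 0.16 and the eotaxin receptor Ccr3 at 0.16 ± 0.23 and did not pass, and all were dim. The basophil protease Mcpt8 rose (1.59 ± 0.24), the only one of 13 mast cell and basophil markers to pass.

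The largest change of all was in Clca1, a secreted metalloprotease of goblet cells. Its intensities were 1400, 2461, 679, 977 and 2490 with allergen, against 9.07, 93.7, 80.8, 44.9 and 2.98 with PBS. Every allergen array exceeded every PBS array by a wide margin, although the PBS arrays themselves ranged widely, and the mean level was 10.49 ± 0.81 on allergen arrays, against 5.64 ± 1.14 on PBS arrays (SD, n = 5 each), a log2 fold change of 4.85 ± 0.55 or 28.8-fold (adjusted p = 6.75e-08). A dimmer probe set of Clca1 did not pass (0.53 ± 0.20, adjusted p = 0.112). Slc26a4, the anion exchanger pendrin of airway epithelium, was bright and had 2482, 2712, 1724, 1988 and 2145 with allergen, against 271, 245, 709, 283 and 484 with PBS (2.53 ± 0.33). Of 29 mucus and goblet cell genes, 12 were higher and 0 lower. Pigr, which carries IgA across epithelium, rose by 2.08 ± 0.30, Tff2, a trefoil peptide, by 1.92 ± 0.41, the mucus protein Fcgbp by 1.21 ± 0.20 and Agr2, a disulphide isomerase needed for mucin folding, by 1.16 ± 0.35. The dimmer probe set of Agr2 stood at 0.06 ± 0.13 (adjusted p = 0.889), and its call was lost with the mean of both probe sets (0.61, adjusted p = 0.0605), a pseudocount of 64 (0.51, 0.188), quantile normalization and without any 1 of 6 arrays. The goblet cell transcription factor Spdef rose by 0.92 ± 0.23 and the mucin Muc5b by 0.73 ± 0.22. Muc5ac, the inducible airway mucin, had 33.9, 141, 16.6, 18.2 and 49.8 with allergen, against 10.2, 14.1, 15.7, 24 and 14.5 with PBS. Its groups overlapped, array 2 was far above the other allergen arrays, and it did not pass (0.85 ± 0.32, adjusted p = 0.106), although it did without allergen array 3 (1.05, adjusted p = 0.0423). The lectin gene Itln1 had 6.95, 33.4, 8.85, 4.16 and 7.32 with allergen, against 2.09, 3.14, 2.23, 2.55 and 3.28 with PBS, all near or below the pseudocount apart from allergen array 2, and did not pass (0.51 ± 0.26, adjusted p = 0.275).

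Early inflammatory cytokines and their receptors were higher in 13 of 29 genes and lower in 0. Il1b had 1095, 824, 609, 629 and 596 with allergen, against 169, 101, 227, 146 and 240 with PBS (2.01 ± 0.24). Tnf had 89.9, 69.9, 58.6, 80.6 and 46.6 with allergen, against 7.57, 5.5, 7.33, 6.97 and 5.22 with PBS, values below the pseudocount on every PBS array (1.90 ± 0.26). The groups stood apart for both genes. IL-1 signalling also showed higher Il1rn, the receptor antagonist (1.64 ± 0.20), Il1r1, the signalling receptor (1.63 ± 0.32), and Il1r2, the decoy receptor (1.41 ± 0.21). Il6 had 40.9, 35.9, 41.5, 41.4 and 34.5 with allergen, against 11.7, 14.3, 14.9, 10.6 and 18.2 with PBS, a rise of 0.88 ± 0.21 (adjusted p = 0.00645) that did not pass with a pseudocount of 64 (0.40, adjusted p = 0.144) or without PBS arrays 2, 4 and 5 (0.0782). Further rises were in Inhba, a subunit of activin A (1.44 ± 0.34), and Osmr, the oncostatin M receptor (0.90 ± 0.16). Among 20 TNF superfamily genes 5 were higher, led by the costimulatory receptor Tnfrsf9 (1.51 ± 0.25) and the death receptor Fas (0.98 ± 0.27).

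Genes that damp NF-kB and cytokine signals rose alongside them, with 16 of 30 higher, 1 lower and a median of 0.68. Socs3, the inhibitor of the IL-6 and G-CSF receptors, had 1012, 1041, 666, 864 and 843 with allergen, against 233, 318, 209, 177 and 234 with PBS, and rose by 1.86 ± 0.17 (adjusted p = 6.54e-10). Socs1, which blocks interferon gamma and IL-4 signalling, rose by 1.88 ± 0.25, and Cish by 0.94 ± 0.14. The RNase Zc3h12a (1.37 ± 0.18), the NF-kB regulators Bcl3 (1.27 ± 0.19), Nfkbiz (1.08 ± 0.18) and Tnip1 (1.04 ± 0.13), the ubiquitin ligase Birc3 (1.15 ± 0.19) and the ubiquitin-editing enzyme Tnfaip3 (0.73 ± 0.15) were higher too. The lower gene was Dusp1, a phosphatase of p38 and JNK (-0.65 ± 0.15). In the innate sensor list 4 of 19 genes were higher: the lipopolysaccharide co-receptor Cd14 (1.71 ± 0.19), Casp4 (1.13 ± 0.20), the adaptor Myd88 (0.93 ± 0.12) and Tlr2 (0.63 ± 0.14). Tlr4 had 81.4 to 123 with allergen, against 50.9 to 93.1 with PBS, and did not pass (0.34 ± 0.13, adjusted p = 0.118).

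Acute phase and antimicrobial genes were higher in 15 of 37 and lower in 0. Saa3, the serum amyloid A made outside the liver, had 1516, 2241, 804, 771 and 622 with allergen, against 89.4, 107, 89.4, 138 and 238 with PBS. Allergen arrays 1 and 2 were highest, the groups did not overlap, and the gene rose by 2.94 ± 0.38 (adjusted p = 1.06e-06). The antibacterial lectin Reg3g (2.19 ± 0.46), the siderophore-binding Lcn2 (1.33 ± 0.25), the pentraxin Ptx3 (1.31 ± 0.16), the protease inhibitor Serpina3n (1.17 ± 0.20) and the epithelial protein Bpifb1 (1.08 ± 0.16) also rose. Of 24 complement genes 4 were higher: Cfp, or properdin (1.0 ± 0.30), Cfb, or factor B (0.85 ± 0.21), the C3a receptor C3ar1 (0.71 ± 0.18) and Itgam (0.52 ± 0.15). Each of these 4 calls was lost without some 1 array. Hc, which encodes complement C5, had 884 to 1073 with allergen and 711 to 1208 with PBS and did not pass (0.02 ± 0.14, adjusted p = 0.969).

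Neutrophil markers varied widely between the allergen arrays. S100a8, a subunit of calprotectin, had 2412, 3239, 852, 491 and 1720 with allergen, against 782, 160, 299, 513 and 627 with PBS, and S100a9, its partner, had 2591, 3935, 568, 396 and 1396 with allergen, against 756, 115, 292, 467 and 538 with PBS. Allergen arrays 1, 2 and 5 lay above all PBS arrays for both genes, array 4 for neither and array 3 for S100a8 alone, so the groups overlapped. The rises of 1.73 ± 0.46 and 1.74 ± 0.49 passed narrowly (adjusted p = 0.0137 and 0.022). Neither passed without allergen array 1 (adjusted p = 0.0557 for S100a8 and 0.0905 for S100a9), allergen array 2 (0.0662 and 0.112) or PBS array 2 (0.0684 and 0.102), and S100a9 also failed without PBS array 3 (0.0504). Of 15 neutrophil markers, 7 were higher and 0 lower, and their summed intensity ran from 5282 to 14160 on allergen and from 2019 to 3661 on PBS arrays. The bone marrow-stage genes Mpo and Elane stood at 0.14 ± 0.15 and 0.19 ± 0.10 and did not pass. Myeloid lectins, scavenger and Fc receptors were higher in 19 of 29 and lower in 0, with a median of 0.63. Cd209e (156 to 379 with allergen, against 25 to 57.6 with PBS) rose by 2.19 ± 0.24, and Cd209a, a C-type lectin of monocyte-derived dendritic cells, by 1.63 ± 0.11 with closely grouped arrays (adjusted p = 8.02e-13). Clec4e, the receptor Mincle, rose by 2.15 ± 0.26, its relative Clec4d by 1.31 ± 0.19, Trem1, an amplifier of myeloid activation, by 1.77 ± 0.18, and the Fc receptor Fcgr3 by 1.60 ± 0.22. Surface genes in the first ranks also included Cd83, a maturation marker of dendritic cells (472 to 775 with allergen, against 86.4 to 134 with PBS; 2.28 ± 0.27), and Ms4a6d of the macrophage-expressed MS4A family (200 to 389 against 20.6 to 52.7; 2.24 ± 0.18). Among T cell markers 1 of 18 was higher, Ctla4 (0.89 ± 0.25), and among NK cell markers 1 of 12, Gzma (0.73 ± 0.19). Cd79b (0.85 ± 0.25), Cxcr5 and Xbp1 were the 3 of 14 B and plasma cell markers that were higher. Over all genes 3.93% were higher. The median log2 fold change was 0.21 for T cell, 0.19 for NK cell and 0.49 for B and plasma cell markers. Each of these lymphocyte marker calls was lost without some 1 array. Jchain, which links IgA and IgM and was picked out after its values were seen, had 1765, 3366, 792, 436 and 801 with allergen, against 291, 89.4, 879, 844 and 608 with PBS, and did not pass (1.37 ± 0.46, adjusted p = 0.063).

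Of 22 genes of leukocyte adhesion and transmigration, 6 were higher and 1 lower, with a median of 0.09. Selp, or P-selectin, had 359, 320, 233, 256 and 326 with allergen, against 52.7, 65.1, 70.3, 82.2 and 70.4 with PBS, and rose by 1.90 ± 0.17 (adjusted p = 2.77e-10). The 5 allergen arrays were all more than 2-fold above the highest PBS array. Sele, or E-selectin (1.25 ± 0.14), Vcam1 (1.11 ± 0.15), Icam1 (0.72 ± 0.14), Cd44 (0.70 ± 0.12) and Itgam were the others that were higher, Cd44 and Itgam being genes of leukocytes as well, and Icam2, a constitutive endothelial adhesion molecule, was lower (-0.59 ± 0.14). Among coagulation genes 6 of 24 were higher and 0 lower, led by Fgl2 (1.09 ± 0.20), Thbs1 (0.89 ± 0.13), F10 (0.86 ± 0.14), Tfpi2 (0.82 ± 0.16) and F3, or tissue factor (0.79 ± 0.17). Matrix remodelling genes were higher in 9 of 41 and lower in 1, with the hyaluronan-binding Tnfaip6 (1.67 ± 0.21), the metalloprotease Adam8 (1.49 ± 0.19) and the inhibitor Timp1 (1.43 ± 0.20) in front. None of 21 collagen genes passed in either direction (limma, median -0.09). An unadjusted p below 0.05 was reached by 4 of them, beside 2430 of all 12393 genes.

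Aldh1a3, an enzyme that makes retinoic acid, was among the most uniform rises. It had 144, 107, 135, 168 and 127 with allergen, against 15.5, 15.5, 6.81, 3.43 and 19.1 with PBS, no overlap and a rise of 2.46 ± 0.19 (adjusted p = 3.39e-11). Its other probe sets, which were dimmer, stood at 0.13 ± 0.11 and 0.48 ± 0.17 and did not pass, so the rise rests on 1 probe set. In the retinoid list only Tgm2 (0.43 ± 0.13) was higher besides, of 22 genes. Acod1, which makes itaconate in activated macrophages, rose by 1.77 ± 0.32, and the arginine transporter Slc7a2 by 0.93 ± 0.16. Arg1, Arg2 (0.74 ± 0.17), Kmo (0.87 ± 0.17), the polyamine enzyme Odc1 (0.53 ± 0.13) and the cystine transporter Slc7a11 (0.51 ± 0.15) rose too. With Acod1 and Slc7a2 they made 7 of 23 genes higher in the arginine, nitric oxide, polyamine and itaconate list. Kmo and Slc7a11 are in that list but outside those pathways. Nos3, the endothelial nitric oxide synthase, was lower (-0.40 ± 0.12). The calls of Slc7a11 and Nos3 were lost without some 1 array. Those of Arg1, Arg2 and Odc1 were lost without PBS arrays 2 and 4 or without 2, 4 and 5. The manganese superoxide dismutase Sod2 rose by 0.93 ± 0.10. In the same list of 44 oxidative stress and detoxification genes, 4 were higher and 6 lower. The lower ones were enzymes that clear alcohols, epoxides and xenobiotics: Adh1 (-0.87 ± 0.15), Ephx1 (-0.68 ± 0.12), Gstm1 (-0.48 ± 0.11), Cyp4b1 (-0.47 ± 0.11), Cyp2f2 (-0.36 ± 0.10) and Ces1d (-0.31 ± 0.10).

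**Figure D3:**
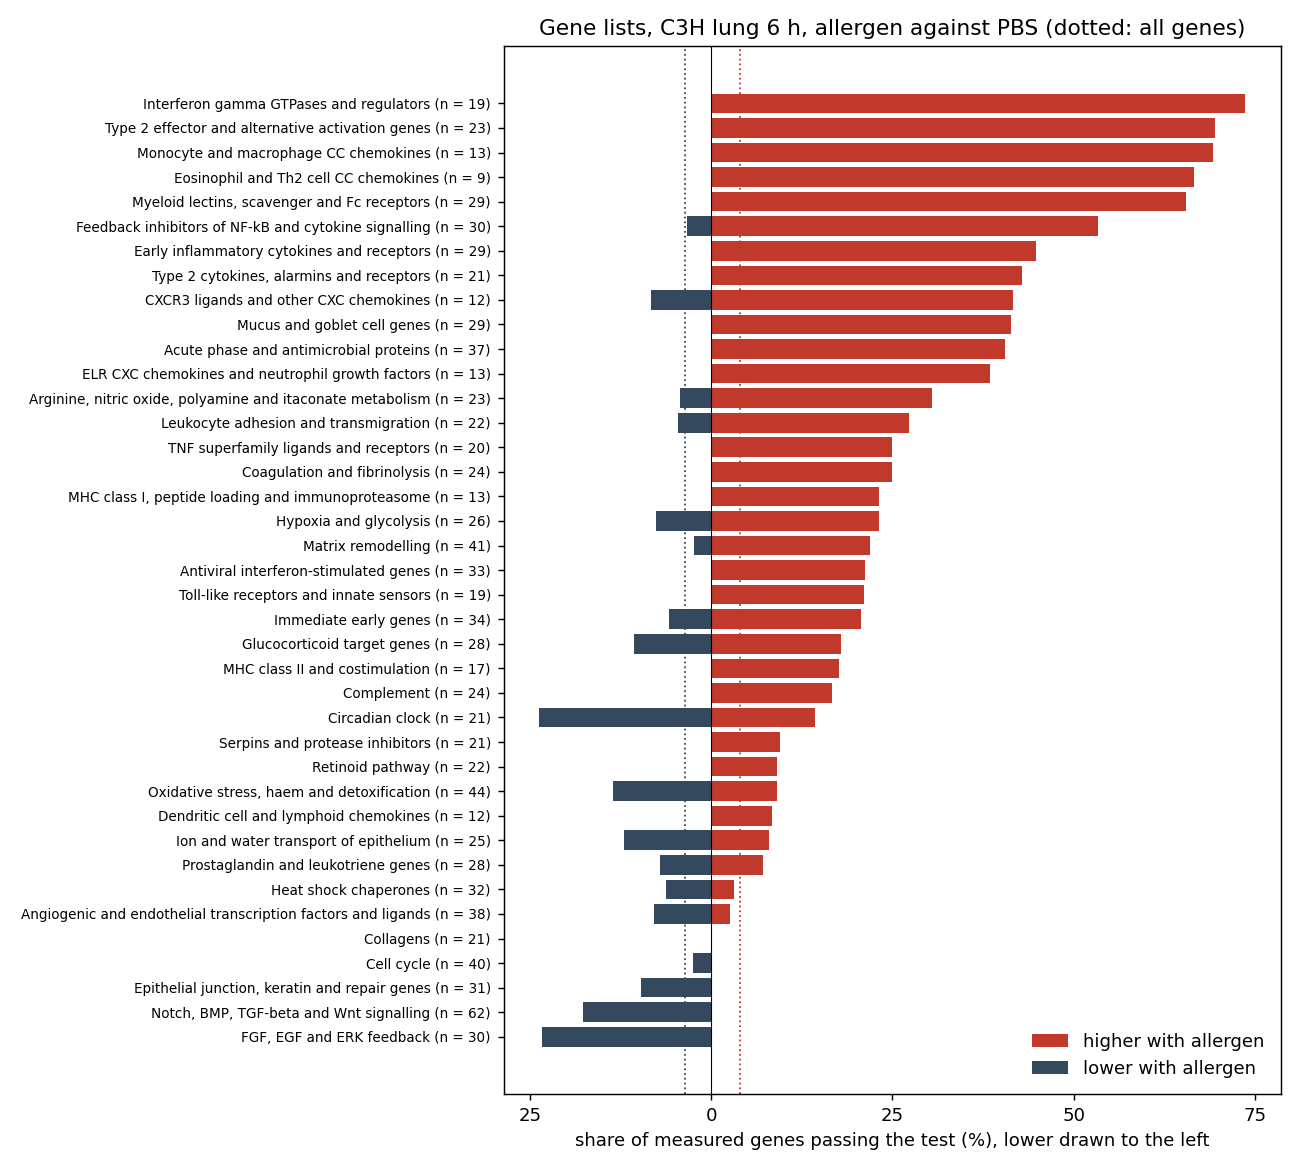
Share of the measured genes of each pathway list that passed the test higher (red, to the right) or lower (blue, to the left) with allergen in C3H lung at 6 h, in percent, with the number measured in brackets. Dotted lines mark the shares among all genes, 3.93% higher and 3.69% lower. Interferon gamma GTPases, type 2 effectors and CC chemokines lead on the right, clock and FGF, EGF and ERK feedback genes on the left.

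Falls were smaller than rises. Etv5, a transcription factor of FGF signalling in alveolar type 2 cells, had 155, 95.8, 186, 170 and 107 with allergen, against 274, 405, 305, 339 and 321 with PBS, and fell (-1.15 ± 0.19, adjusted p = 7.31e-05). A second, dimmer probe set of Etv5 stood at -0.75 ± 0.25 and did not pass (adjusted p = 0.062). The FGF, EGF and ERK feedback list had 0 of 30 genes higher and 7 lower. Besides Etv5 these were the receptors Fgfr4 (-0.80 ± 0.15) and Fgfr3 (-0.60 ± 0.16), the ligand Fgf1 (-0.37 ± 0.11) and the feedback inhibitors Spry1 (-0.67 ± 0.14), Errfi1 (-0.67 ± 0.18) and Dusp7 (-0.51 ± 0.14). The calls of Fgfr3, Fgf1, Errfi1 and Dusp7 were lost without some 1 array. Notch, BMP, TGF-beta and Wnt signalling had 0 of 62 higher and 11 lower, with a median of -0.14. The Wnt ligand Wnt7a (-0.94 ± 0.20), its receptors Fzd2 (-0.79 ± 0.17) and Fzd1 (-0.76 ± 0.18), the BMP antagonist Smad6 (-0.81 ± 0.22), the Notch target Heyl (-0.57 ± 0.13) and the hedgehog receptor and inhibitor Ptch1 (-0.49 ± 0.15) and Hhip (-0.58 ± 0.18) were among them. Ccn2, a matricellular target of TGF-beta and YAP, fell (-0.96 ± 0.14), while the related Ccn1 rose (0.77 ± 0.16).

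Clock genes moved in both directions. Per1, a repressor of the circadian clock, had 139, 217, 81.8, 171 and 162 with allergen, against 291, 425, 373, 325 and 322 with PBS. No allergen array reached the lowest PBS array, and the gene fell (-1.14 ± 0.20, adjusted p = 0.000222). Dbp, a clock output transcription factor, had 133, 113, 221, 252 and 162 with allergen, against 363, 597, 342, 351 and 285 with PBS, also without overlap (-1.08 ± 0.21). Of 21 clock genes, 5 were lower, also the Dbp relatives Tef (-0.86 ± 0.12) and Hlf (-0.69 ± 0.14) and the repressor Per3 (-0.63 ± 0.17). The 3 that were higher were the activator Arntl (0.65 ± 0.15) and the repressors Nfil3 (0.73 ± 0.18) and Bhlhe40 (0.69 ± 0.16). The hours of day at which lungs were collected are not given in the sources used here, and both groups are labelled with the same time after aspiration. Per1 and Klf15 are also targets of the glucocorticoid receptor. In the list of such targets, which does not hold Klf15, 5 of 28 were higher and 3 lower (Per1, Errfi1 and Dusp1). The higher ones were the zinc transporter Slc39a14 (1.54 ± 0.20), Il1r2, Lcn2 and the metallothioneins Mt2 (0.97 ± 0.19) and Mt1 (0.80 ± 0.18). The promoter of Per1 is shown for its E-box, CACGTG, the motif that clock activators bind, given in capitals in the window from 200 to 101 bases before the start (GRCm38.p6, chr11:69098749-69098848, plus strand).
Per1: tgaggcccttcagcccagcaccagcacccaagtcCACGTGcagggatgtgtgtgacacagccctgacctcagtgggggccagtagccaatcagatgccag
The E-box was in 4 of the 15 promoters available among the 16 largest falls (Per1, Klf15, Smpd2 and Aqp5) and in 1 of 14 among the rises (Pigr), beside 9.33% of all promoters.

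The remaining large falls were of mixed function. Pnkd (12.8 to 47.4 with allergen, against 53.5 to 122 with PBS) had the largest log2 fold change among non-overlapping falls (-1.15 ± 0.25). Rnf186, a ubiquitin ligase of the endoplasmic reticulum, had 80.8, 109, 77.3, 105 and 84.2 with allergen, against 189, 350, 240, 166 and 190 with PBS, and fell with the lowest adjusted p of the first 10 (-1.14 ± 0.15, 1.6e-06). Klf15, a metabolic transcription factor, had 42.5, 75, 60.6, 57.6 and 61.9 with allergen, against 169, 181, 113, 118 and 122 with PBS (-1.04 ± 0.18). Each allergen array lay below each PBS array for these genes. Ngef (-1.11 ± 0.17) and Gpsm2, a spindle orientation protein (-0.97 ± 0.20), were near or below the pseudocount with allergen, which limits their fold changes. The others were Atp6v1c2 (-1.01 ± 0.31), a proton pump subunit, Smpd2 (-0.98 ± 0.29), a sphingomyelinase, Adcy9 (-0.96 ± 0.19), an adenylyl cyclase, St8sia2 (-0.95 ± 0.14), a polysialyltransferase, Zfyve21 (-0.94 ± 0.14), Alas1 (-0.91 ± 0.12), the first enzyme of haem synthesis, and Aqp5 (-0.90 ± 0.16), the water channel of type 1 alveolar cells. Atp6v1c2 did not pass without allergen array 1 or 4 or PBS array 1, 3 or 4 (adjusted p between 0.0505 and 0.118), nor Smpd2 without allergen array 1 or 4 or PBS array 1, 2 or 4 (between 0.0531 and 0.107).

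**Figure D4:**
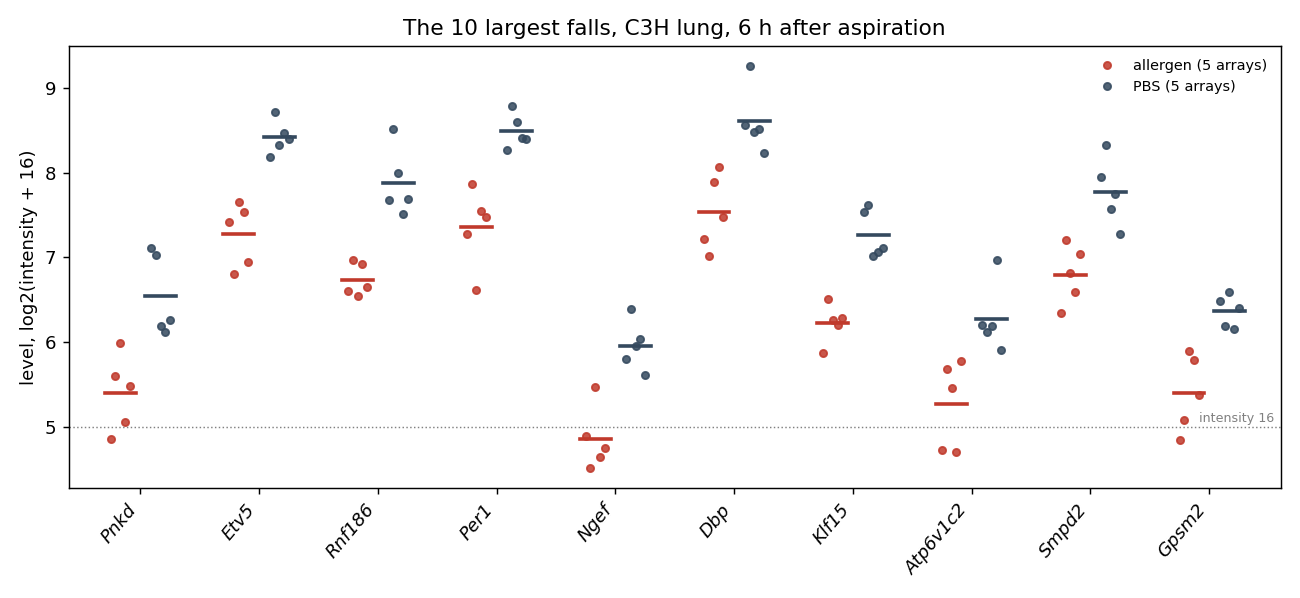
Levels, log2(intensity + 16), of the 10 genes with the largest falls whose groups did not overlap, on the 5 allergen arrays (red, left) and the 5 PBS arrays (blue, right) of C3H lung at 6 h. Points are arrays, bars are group means and the dotted line marks an intensity of 16. Allergen arrays of Ngef and some of Pnkd, Gpsm2 and Atp6v1c2 lie near the dotted line.

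Of 16 alveolar epithelium markers 5 were lower and 0 higher: Etv5, Aqp5, Rtkn2 (-0.71 ± 0.16), the surfactant lipid transporter Abca3 (-0.53 ± 0.13) and the surfactant lipid enzyme Lpcat1 (-0.46 ± 0.14). Surfactant protein genes did not pass, Sftpc at -0.22 ± 0.15 and Sftpb at -0.25 ± 0.14, and the summed intensity of the list ran from 32938 to 39585 with allergen and from 40793 to 43210 with PBS. Of 24 endothelial markers 5 were lower, the receptor Tie1 (-0.76 ± 0.23), the angiopoietin receptor Tek (-0.61 ± 0.12), the transcription factor Sox17 (-0.69 ± 0.18), Ramp2 (-0.62 ± 0.15) and Nos3, and Ackr1 was higher. General endothelial genes did not pass, with Pecam1 at -0.14 ± 0.11 and Cdh5 at -0.22 ± 0.13, and PBS array 2 was the highest array of the list in summed intensity (13048 to 17476 on allergen arrays, 16780 to 23599 on PBS arrays). Sox18 had 719, 393, 820, 850 and 801 with allergen, against 824, 1303, 742, 631 and 706 with PBS, with overlap, and did not pass (-0.23 ± 0.18, adjusted p = 0.551). Of 14 club cell markers Chad was higher (1.07 ± 0.25) and Cyp2f2, Ces1d and the potassium channel gene Kcnk2 (-0.71 ± 0.16) lower, and of 20 fibroblast and smooth muscle markers 2 were lower, the transcription factor Tcf21 (-0.40 ± 0.13) and Inmt (-0.39 ± 0.10). Epithelial sodium channel subunits Scnn1b (-0.61 ± 0.12) and Scnn1g (-0.50 ± 0.13) fell and the water channel Aqp3 rose (0.69 ± 0.21). Of 40 cell cycle genes 0 were higher and 1 lower, the inhibitor Cdkn2c (-0.83 ± 0.13), and 7 had an unadjusted p below 0.05 (limma). Over all genes 3.93% were higher and 3.69% lower, and 2430 of 12393 had an unadjusted p below 0.05. The cell cycle counts are near these shares. Several calls in these lists depended on single arrays. Those of Lpcat1, Tie1, Sox17, Nos3, Cyp2f2, Ces1d, Tcf21, Scnn1g and Aqp3 were lost without some 1 array. The calls of Abca3, Rtkn2, Ramp2 and Inmt were lost without PBS arrays 2 and 4 or without 2, 4 and 5.

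Set against AJ lungs at 6 h, which share no array with the C3H comparison, the C3H response had 345 of its 487 higher genes also higher in AJ (70.8% of the C3H genes, 39.6% of the 871 AJ genes). Of its 457 lower genes, 274 were also lower in AJ (60% of the C3H genes, 18.4% of the 1487 AJ genes), and 7 genes passed in opposite directions. The allergen effect itself differed between the strains for 267 genes (2.15% of those tested). Itln1 differed most: the effect was 0.51 ± 0.26 in C3H and 5.17 ± 0.26 in AJ, and C3H minus AJ was -4.66 ± 0.37 (adjusted p = 7.49e-11). Chil4 had 1.40 ± 0.30 in C3H and 4.33 ± 0.30 in AJ (difference -2.92 ± 0.42), and Muc5ac 0.85 ± 0.32 in C3H and 2.98 ± 0.32 in AJ (-2.13 ± 0.45). Clca1 had 4.85 ± 0.55 in C3H and 6.64 ± 0.55 in AJ, but the difference did not pass (-1.79 ± 0.78, adjusted p = 0.268).

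Of the 29 early inflammatory cytokines and receptors 6 differed between strains, and of the 19 innate sensors 0 did (limma, 3 at an unadjusted p below 0.05). The C3H effect was smaller for Il6 (-1.90 ± 0.30), Csf3 (-2.36 ± 0.50), Acod1 (-2.15 ± 0.45), Socs3 (-1.02 ± 0.24), the immediate early factor Egr1 (-1.98 ± 0.33) and the potassium channel subunit Kcne4 (-2.03 ± 0.23), and for the antiviral genes Mx2 (-2.07 ± 0.35) and Rsad2 (-1.83 ± 0.30). Of 33 antiviral genes, 9 differed between strains. Of the 19 interferon gamma GTPases and regulators in the list, which does not hold Gbp2b, 0 did (limma, 4 at an unadjusted p below 0.05). Over all genes 2.15% differed, and 1712 of 12393 had an unadjusted p below 0.05. A count of 0 of 19, here or among the innate sensors, is therefore near the share of all genes. In the opposite direction, several genes were much lower with allergen in AJ than in C3H: Hspa1b stood at -0.66 ± 0.23 in C3H and -2.95 ± 0.23 in AJ (difference 2.29 ± 0.33; its probes may also read the near-identical Hspa1a), Sox18 at -0.23 ± 0.18 and -2.29 ± 0.18 (2.06 ± 0.26), the Notch target Hey1 at -0.34 ± 0.14 and -2.23 ± 0.14 (1.89 ± 0.20), and Hoxb5 at -0.57 ± 0.19 and -2.02 ± 0.19 (1.45 ± 0.27). Per1 fell in C3H (-1.14 ± 0.20) and stood at 0.18 ± 0.20 in AJ, a difference of -1.32 ± 0.29 (adjusted p = 0.00798). Gbp2b, a guanylate-binding protein that rose by 1.91 ± 0.21 in C3H, stood at 0.74 ± 0.21 in AJ (difference 1.17 ± 0.30, adjusted p = 0.0253).

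By 24 h in C3H lungs, 260 genes were higher and 142 lower. Of the 487 genes higher at 6 h, 110 were also higher at 24 h (22.6% of the 6 h genes, 42.3% of the 24 h genes). Of the 457 lower ones, 22 were also lower at 24 h (4.81% and 15.5%), and 0 genes passed in opposite directions. The times have separate PBS groups, and the difference between the effects passed for 109 genes (0.880%). That count rested on single arrays: it was 29 without allergen array 1 of 6 h, 53 and 56 without PBS arrays 1 and 2 of 6 h, 53 without allergen array 1 of 24 h, and 50, 60 and 55 without PBS arrays 3, 4 and 5 of 24 h. Several named chemokines and cytokines had a smaller effect at 24 h: Cxcl1 1.02 ± 0.33 (24 h minus 6 h -2.06 ± 0.47), Cxcl2 0.11 ± 0.25 (-2.30 ± 0.35), Cxcl5 1.26 ± 0.32 (-2.0 ± 0.45), Ccl3 0.25 ± 0.28 (-2.18 ± 0.40), Tnf 0.02 ± 0.26 (-1.88 ± 0.37) and Il1b 0.53 ± 0.24 (-1.48 ± 0.34). Clec4e (-1.80 ± 0.37), Acod1 (-1.79 ± 0.45), Selp (-1.13 ± 0.23), Il33 (-1.34 ± 0.27) and Iigp1 (-1.25 ± 0.28) also differed in this direction. Of the 23 type 2 effector genes 2 differed between times, both with a larger effect at 24 h, Rnase2a at 4.09 ± 0.30 at 24 h (difference 1.63 ± 0.42) and Chil4 at 3.36 ± 0.30 (1.96 ± 0.42), and the monocyte chemokine Ccl12 differed in this direction too (1.31 ± 0.32). For Clca1 (6.30 ± 0.55 at 24 h), Ccl24 (3.16 ± 0.31) and Ccl11 (2.14 ± 0.27) the difference between times did not pass (adjusted p = 0.392, 0.608 and 0.669). Ccn2 (-0.96 ± 0.14 at 6 h, 0.12 ± 0.14 at 24 h, difference 1.08 ± 0.20) and Ngef (0.99 ± 0.24) were lower at 6 h than at 24 h in their effects. Rassf1 had the largest time difference (-2.58 ± 0.40), from a lower level with allergen at 24 h (-2.05 ± 0.28) and no call at 6 h (0.53 ± 0.28).

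**Figure D5:**
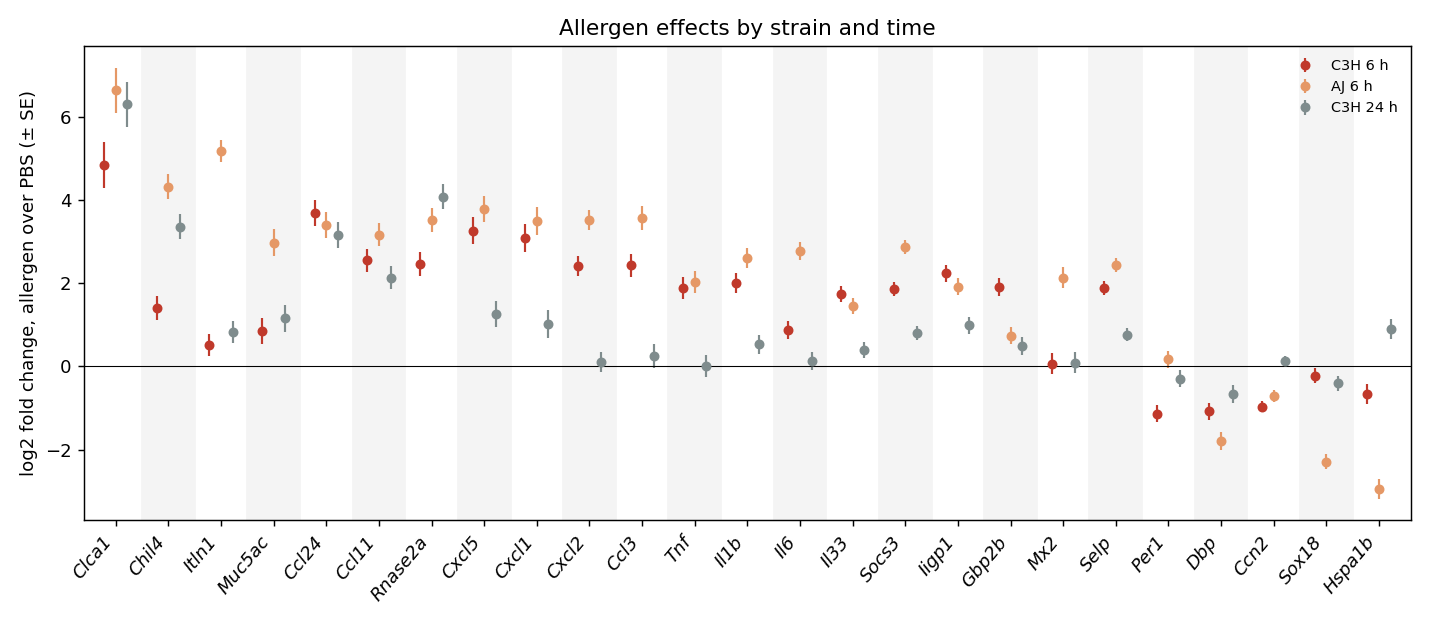
Log2 fold changes of allergen over PBS (± SE) for genes named in the text, in C3H at 6 h (red), AJ at 6 h (orange) and C3H at 24 h (grey), each from 5 allergen and 5 PBS arrays. Itln1, Chil4, Muc5ac, Il6 and Mx2 are higher in AJ at 6 h, Cxcl1, Cxcl2, Ccl3 and Tnf are lower in C3H at 24 h, and Per1 is below 0 beyond its error in C3H at 6 h but not in AJ.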

How the data were processed

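Gene expression was measured on 40 one-colour Affymetrix arrays of mouse lung, 8 groups of 5. The authors deposited 1 table of intensity values on a linear scale. The mean of each array after trimming 2 percent at each end was between 150.04 and 150.05, so the deposited intensities had been scaled to a common mean, and the software is not given in the sources used here. No detection calls were used.

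Of 22690 probe sets, 64 were controls, 20380 had 1 gene symbol, 691 had several and 1555 had none in the platform annotation. 20351 of those with 1 symbol matched the RefSeq gene table by Entrez number. Each of the 12393 genes was represented by its brightest probe set (4956 genes had more than 1), as log2(intensity + 16), on which 13.4% of values on the 10 arrays lay below the pseudocount. A fold change on this scale understates the change of dim genes.

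Differences were tested with limma 3.58.1 in R 4.3.3, with 8 group means fitted over all 40 arrays, two-sided, and adjusted over all genes by Benjamini and Hochberg at 0.05. The number of arrays limits the precision. The same code was tested on simulated data.

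Among genes that passed with non-overlapping groups, the 24 largest rises and 16 largest falls were candidates for naming, as were the 5 largest passing members of each list, the 8 largest of each sign in each difference of effects, and a list of genes named in any case. Not all are printed. The members and gene lists were chosen with earlier results of these data known. Promoters were taken from RefSeq (GRCm38.p6) for 14 of the 24 largest rises and 15 of the 16 largest falls. Alternatives were pseudocounts of 1 and 64, median centring, quantile normalization, a minimum mean level of 6, the mean of all probe sets, a trended robust prior, the compared groups only, a replicate block and leaving out each array. Leaving out PBS arrays 2 and 4, with or without 5, was added after seeing the data.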

Additional observations from a re-analysis of the deposited data

Results flagged for a closer look

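Among the 44 genes given array by array, the allergen effects of several differed in a test of the difference itself (limma, adjusted over all genes). Between times in C3H lungs, the effect at 24 h minus that at 6 h, on the log2 scale, was -2.0 for Cxcl5, -2.06 for Cxcl1, -2.3 for Cxcl2, -2.18 for Ccl3, -1.88 for Tnf, -1.48 for Il1b, -1.34 for Il33, -1.25 for Iigp1 and -1.05 for Socs3. It was 1.63 for Rnase2a, 1.96 for Chil4, 0.91 for Rnf186 and 0.99 for Ngef. Rnf186 and Ngef had fallen at 6 h, so their positive differences are smaller falls or rises at 24 h. Between strains at 6 h, the effect in C3H minus that in AJ was -4.66 for Itln1, -2.92 for Chil4, -2.13 for Muc5ac, -1.9 for Il6, -1.32 for Per1, -1.02 for Socs3 and 2.06 for Sox18.

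In 4 of 88 groups of 5 arrays, 1 array lay apart from the other 4 (Dixon's criterion), and chance gives about 1 in 20 such groups. Itln1 had a level, log2(intensity + 16), of 5.63 on allergen array 2, against 4.33 to 4.63 on the other allergen arrays. Sox18 had 8.68 on allergen array 2, against 9.52 to 9.76 on the others. Ms4a6d had 5.19 on PBS array 2, against 5.93 to 6.1 on the other PBS arrays, and Atp6v1c2 had 6.97 on PBS array 4, against 5.91 to 6.2.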

How the results depend on the processing

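The counts of 487 higher and 457 lower genes stayed within 1.5 times under all 7 processing alternatives (413 to 542 higher and 409 to 483 lower). They depended on the arrays in the fit. With only the arrays of the groups compared, 252 genes were higher, 118 lower, 112 differed between strains and 32 between times. With the replicate number as a block in those arrays the counts were 118, 17, 97 and 27, and the higher share of calls was 87.4% (68.1% without the block), against 51.6% over all 40 arrays. The labels give no shared animal or day for a number. After the group means were subtracted, the correlation between same-numbered allergen and PBS arrays was -0.23 to 0.04. By this measure 0 of 5 numbers matched best with their own. With 5 numbers this is too little to decide whether a number stands for a shared animal or day. Without PBS arrays 2 and 4, 228 genes were lower and 48 differed between times, and without PBS arrays 2, 4 and 5, 281 were higher, 172 lower and 62 differed between times. Leaving out each array gave 362 to 491 higher, 295 to 517 lower, 196 to 391 strain and 29 to 151 time differences. Of 206 named genes that passed, 121 lost the call with the replicate block and 63 with only the arrays of the groups compared. The call was lost for 48 without some 1 array, 49 without PBS arrays 2 and 4, and 68 without PBS arrays 2, 4 and 5. Under at least 1 processing alternative 25 lost it. Besides the 6 genes whose losses stand beside their values, calls were lost without 1 array for Agr2, Aqp3, C3ar1, Ccl12, Cd79b, Ces1d, Cfb, Cfp, Csf3r, Ctla4, Cxcr5, Cxcr6, Cyp2f2, Dusp7, Errfi1, Fas, Fgf1, Fgfr3, Gzma, Hhip, Hspa1a, Il13ra2, Il5ra, Itgam, Lpcat1, Muc5b, Nos3, Oas3, Psmb8, Psmb9, Ptch1, Scnn1g, Slc7a11, Slfn1, Slfn4, Smad6, Sox17, Stat2, Tcf21, Tgm2, Tie1 and Xbp1. Without PBS arrays 2 and 4, or 2, 4 and 5, further calls were lost for Abca3, Arg1, Arg2, Arntl, Ccl1, Ccl22, Ccn1, Ccr2, Chil4, Cxcr4, Cyp4b1, Dusp1, F3, Fcer2a, Fzd2, Heyl, Icam2, Il1r1, Il6, Inmt, Mt1, Nfil3, Odc1, Per3, Ramp2, Rtkn2, Rtp4, Spdef and Tnfaip3. Of 67 named genes with another probe set, 26 had none other that passed in the same direction: Abca3, Agr2, Alas1, Aldh1a3, Birc3, Ccr2, Ces1d, Clca1, Cxcl11, Cxcr6, Dusp7, Errfi1, Etv5, Fgf1, Fgfr3, Hhip, Il4ra, Lpcat1, Mt1, Osmr, Ptch1, Rtp4, Slc39a14, Tap1, Tef and Zbp1. Effects that changed sign did not pass in any setting: Ccr3 (-0.003 to 0.288 without 1 array, -0.043 without PBS arrays 2 and 4, -0.077 without 2, 4 and 5), Epx (-0.071 to 0.085, and 0.026 without 2, 4 and 5), Hc (-0.089 to 0.099, and -0.021 without 2 and 4), Mpo (-0.004 to 0.23), Rsad2 (-0.081 to 0.123), Csf3 (-0.132 without 2, 4 and 5), Krt4 (-0.759 without 2, 4 and 5) and Mx2 (-0.005 with quantile normalization). The cause was not tested. Probe sets near the pseudocount limit the precision of dim genes such as Il4, Il5 and Il13.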
